A study of Mus musculus with 8 samples.

Results

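Tff3, Gpc1, Cib3, Dct, Snhg11, Gpr110 and Moxd1 are 7 of the 11784 genes listed for these livers, selected on the values of the table itself, because the Low AA mice lay far below the Control mice. These are the mice described here, so the difference between the diets in these genes is described and not tested. Livers came from 8 male C57BL/6J mice, 4 on each diet. Both diets are amino acid defined. The Control diet is TD.140711, and the Low AA diet, TD.140712, supplies less of its energy as amino acids and more as carbohydrate. The diets began at 9 weeks of age and lasted 4 months, and all mice were killed after an overnight fast of about 16 hours. RNA with a poly(A) tail was sequenced from whole liver, so fewer cells of one type and less RNA per cell cannot be told apart in any value below.

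The 7 genes do different work. Tff3 encodes a small secreted trefoil peptide that mucous epithelia release to protect and repair their surface, and bile ducts are one source of it in the liver. Gpc1 is a glypican, a heparan sulfate proteoglycan held on the cell surface by a lipid anchor, where it binds growth factors. Gpr110, now named Adgrf1, is an adhesion G protein-coupled receptor that responds to an ethanolamide of docosahexaenoic acid. Dct, dopachrome tautomerase, is a melanin enzyme of pigment cells. Moxd1 is a copper monooxygenase related to dopamine beta-hydroxylase, resides in the endoplasmic reticulum and is known as a male-biased transcript of mouse liver. Cib3 encodes a calcium-binding protein with EF hands that serves the mechanotransduction channel of hair cells. Snhg11 is a host transcript of small nucleolar RNAs that is best known from neurons. Male-biased liver genes are set in large part by the pulses of growth hormone in males, which act through STAT5.

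The start-site regions of Moxd1, Dct and Snhg11 are shown because each holds a short motif named in the next paragraph. They are RefSeq sequence of build GRCm38.p6, 5′ to 3′ on the strand of the gene, and they end before the first annotated start in RefSeq or GENCODE. Capitals mark the motif matches. The window of Moxd1 is chr10:24223267-24223516, plus strand, that of Dct chr14:118052247-118052496, minus strand, and that of Snhg11 chr2:158375463-158375637, plus strand.
Moxd1: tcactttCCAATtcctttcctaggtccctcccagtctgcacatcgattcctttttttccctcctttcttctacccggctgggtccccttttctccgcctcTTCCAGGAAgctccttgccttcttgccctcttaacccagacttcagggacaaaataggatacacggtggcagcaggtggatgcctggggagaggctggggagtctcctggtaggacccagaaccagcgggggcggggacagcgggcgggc
Dct: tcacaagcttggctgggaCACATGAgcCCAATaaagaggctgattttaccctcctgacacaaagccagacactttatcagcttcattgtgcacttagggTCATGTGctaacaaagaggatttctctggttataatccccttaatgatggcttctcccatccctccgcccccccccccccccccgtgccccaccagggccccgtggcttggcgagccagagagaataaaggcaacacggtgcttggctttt
Snhg11: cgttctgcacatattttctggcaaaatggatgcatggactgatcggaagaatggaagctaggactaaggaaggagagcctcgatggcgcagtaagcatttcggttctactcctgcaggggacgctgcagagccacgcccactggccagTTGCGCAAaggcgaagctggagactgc

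A set of 7 motifs were searched on both strands in the 250 bases before the start site, for the 5 of the 7 genes that the promoter table holds. Moxd1 holds 1 match to TTCNNNGAA, the palindrome that STAT5 binds, at 150 to 142 bases before the start, as do 7.02% of the 32851 promoters in the table. Dct holds 2 matches to TCATGTG, the M-box through which MITF acts in pigment cells, at 232 to 226 and at 151 to 145 bases before the start, and 3.25% of promoters hold at least 1. Snhg11 holds 1 match to TTGCNNAA, a C/EBP-type site, found in 9.56% of promoters. CCAAT was found in Dct and Moxd1 and in 33.8% of promoters. The letters CACGTG, TGACNNNGC and TATAAA were found in none of the 5 windows, against 6.02%, 10.2% and 12.4% of promoters. Not all of each window lies before every annotated start in RefSeq or GENCODE. Only 1 of the 250 bases does for Cib3, 175 for Snhg11 and 186 for Gpr110. Within Dct the first M-box and the CCAAT match lie side by side without overlap. These matches describe letters only.

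In the deposited table the values are scaled read counts, which summed to between 27876664 and 30799385 per Low AA mouse and to between 28361406 and 29485422 per Control mouse. All 8 hepatocyte markers were listed, with Alb, Apoa1 and Cps1 among them, and their summed level was 2381390 to 2620909 on the Low AA diet and 2163912 to 2500778 on the Control diet. Control mouse F2212 stood apart from the other mice. It had 36587 for Cela1, a pancreatic elastase, where the next Control mice had 130 to 178 and Low AA mice 190 to 288. Values with and without this mouse are therefore given for the genes in which it lay outside the range of the other 3 Control mice.

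Tff3 (chromosome 17, 31125306 to 31129646, minus strand, GRCm38) stood at 184 in Control mouse F129, 166 in F2212, 124 in F7111 and 113 in F2110. On the Low AA diet it stood at 4 in H1126, 7 in H828, 15 in H817 and 8 in H1315. The diets did not overlap, and the lowest Control value was 7.53 times the highest Low AA value. The Control mean was 147 ± 33.7 and the Low AA mean 8.5 ± 4.66 (SD, n = 4 each). On the scale of log2(value + 1) the fold change was -4.06 with a standard error of 0.34. Bile duct markers were read beside it. Of 9 such markers 5 were listed, Krt19, Epcam, Sox9, Spp1 and Slc4a2, and their summed level was 1612 to 2029 on the Low AA diet and 1869 to 2969 on the Control diet. Their mean log2 level, centred on each gene, was -0.583 to 0.009 for Low AA and 0.024 to 0.468 for Control, so the diets lay next to each other without overlap. The difference of the means was -0.51 (exact permutation test, two-sided, p = 0.0286, adjusted p = 0.229 over 8 marker lists), and no smaller p is possible with 4 mice against 4. This list was shortened by 1 marker after its values had been seen, so the p supports nothing, and their part in the lower level of Tff3 was not tested. Of the 17 trefoil and mucosal genes looked for, among them Tff1, Tff2 and Muc2, 0 were matched to the table.

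Gpc1 (chromosome 1, 92831645 to 92860779, plus strand) had the highest mean of the 7 on each diet and the smallest spread, although Moxd1 was higher in Control mouse F7111. It stood at 715, 717, 732 and 765 in Control mice F129, F2212, F7111 and F2110, and at 187, 183, 244 and 193 in Low AA mice H1126, H828, H817 and H1315. The Control mice differed by a coefficient of variation of 3.16%, where counting error alone would give 3.70% if the values were read counts. The Control mean was 732 ± 23.1 and the Low AA mean 202 ± 28.5 (SD, n = 4 each). Their ratio was 3.63, and the log2 fold change was -1.86 with a standard error of 0.12. The 3′ end of Gpc1 shares 977 exonic bases with Ankmy1 on the opposite strand, a gene that is not in the table, and whether counting used the strand is not given in the sources used here. Mir149 lies on the same strand within Gpc1 and outside its exons. Its mature products are shown because of this position, with the seed, bases 2 to 8, in capitals. They were not measured by this assay, and whether they come from the Gpc1 transcript in these livers was not tested.
mmu-miR-149-5p: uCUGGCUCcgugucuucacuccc
mmu-miR-149-3p: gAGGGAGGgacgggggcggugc

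Gpr110 (chromosome 17, 43270329 to 43324737, plus strand) was the second surface protein of the 7. Its Control values were 101 in F129, 33 in F2212, 118 in F7111 and 102 in F2110, and its Low AA values were 14 in H1126, 11 in H828, 22 in H817 and 8 in H1315. The diets came close, since F2212 was only 1.5 times the highest Low AA mouse while the other 3 Control mice stood together above 100. The log2 fold change was -2.54 with a standard error of 0.43, and without F2212 it was -2.96. Means were 88.5 ± 37.8 and 13.8 ± 6.02 (SD, n = 4 each).

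Moxd1 (chromosome 10, 24223517 to 24302790, plus strand) had the lowest log2 fold change of all 11784 genes and was also the one of the 7 whose diets overlapped. Its Control values were 189 in F129, 27 in F2212, 1301 in F7111 and 252 in F2110. Its Low AA values were 1 in H1126, 0 in H828, 2 in H817 and 35 in H1315. Mouse H1315 thus lay above F2212, and each of these mice lay toward the other diet. The log2 fold change was -5.74 with a standard error of 1.24. It was -6.69 without F2212, -6.82 without H1315 and -4.85 without F7111, the mouse with the highest value.

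Dct (chromosome 14, 118012790 to 118052244, minus strand) had the lowest mean of the 7 on the Low AA diet, although Moxd1 had the lower median, with 3 in H1126, 2 in H828, 2 in H817 and 7 in H1315. On the Control diet it stood at 31 in F129, 61 in F2212, 39 in F7111 and 34 in F2110. The diets did not overlap, and F2212, low for Gpr110 and Moxd1, was the highest mouse for Dct. The log2 fold change was -3.31 with a standard error of 0.40, and -3.11 without F2212. Of 9 melanocyte markers only Slc24a5 was listed, at 27 to 37 on the Low AA diet and 22 to 40 on the Control diet, and Tyr, Tyrp1, Pmel and Mlana were not among the genes listed.

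Cib3 (chromosome 8, 72204335 to 72212837, minus strand) stood at 175 in F129, 60 in F2212, 186 in F7111 and 127 in F2110, and at 5 in H1126, 7 in H828, 10 in H817 and 10 in H1315. The lowest Control mouse, again F2212, was 6.0 times the highest Low AA mice. Means were 137 ± 57.4 and 8.0 ± 2.45 (SD, n = 4 each), with a log2 fold change of -3.86 and a standard error of 0.37, or -4.21 without F2212.

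Snhg11 (chromosome 2, 158375638 to 158386145, plus strand) is a noncoding gene in RefSeq and is classed as protein coding in GENCODE. It stood at 76 in F129, 120 in F2212, 151 in F7111 and 120 in F2110, and at 10 in H1126, 16 in H828, 24 in H817 and 20 in H1315. The diets did not overlap, with a ratio of 3.17 between the lowest Control and the highest Low AA mouse. The log2 fold change was -2.69 with a standard error of 0.30. Of 8 neuronal markers 2 were listed, Syt1 and Syp, with a summed level of 181 to 212 on the Low AA diet and 176 to 284 on the Control diet.

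**Figure D1:**
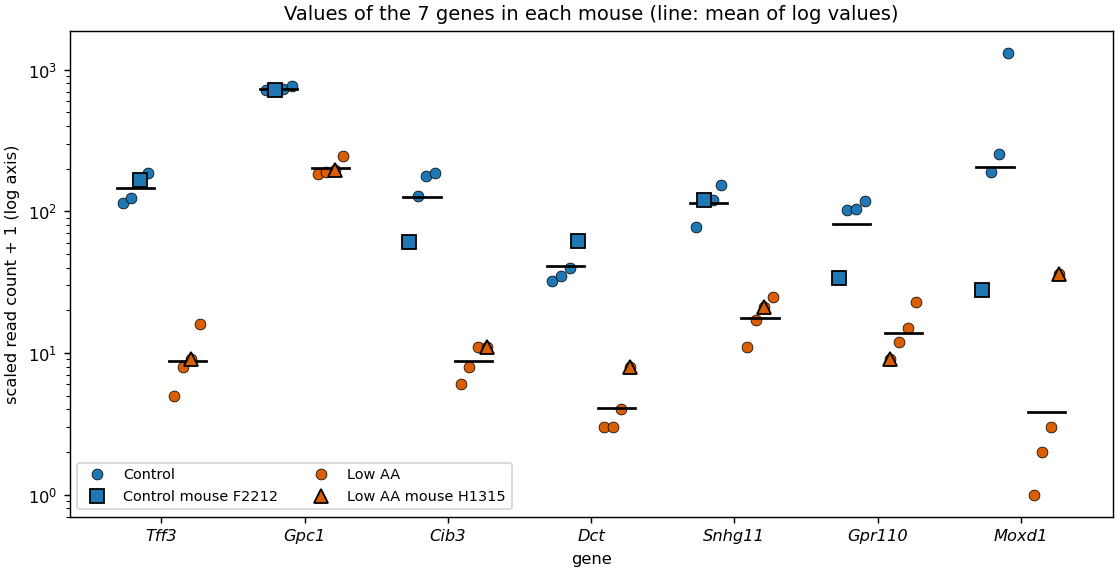
Scaled read count plus 1 (log axis) of each of the 7 genes in each mouse, with Control mice in blue and Low AA mice in orange, lines at the mean of the log values, a square for Control mouse F2212 and a triangle for Low AA mouse H1315. The diets are apart for 6 genes and overlap for Moxd1, where F2212 stood at 27 and H1315 at 35.

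The diets did not overlap in 6 of the 7 genes, with Low AA lower, beside 6.81% of all listed genes without overlap in either direction and 3.55% with Low AA lower. Nothing is read from that count, since the 7 were chosen by the same values. The order of the mice within a diet differed between genes. Mouse F7111 was the highest Control mouse for Cib3, Snhg11, Gpr110 and Moxd1, and F2212 was the lowest for Cib3, Gpr110 and Moxd1. Mouse F129 was the lowest Control mouse for Gpc1, Dct and Snhg11 and the highest for Tff3. Among Low AA mice H817 was the highest for Tff3, Gpc1, Snhg11 and Gpr110, tied with H1315 for Cib3, and H1315 was the highest for Dct and Moxd1. The SD of the log2 values was 0.05 for Gpc1 in the Control mice and 2.27 for Moxd1, against a median of 0.23 over all listed genes.

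Counted from the lowest log2 fold change of all genes, the ranks were 1 for Moxd1, 3 for Tff3, 4 for Cib3, 6 for Dct, 9 for Snhg11, 10 for Gpr110 and 24 for Gpc1. With each mouse left out in turn Moxd1 stayed at rank 1, Tff3 moved between 2 and 4, Gpr110 between 7 and 15, and Gpc1 between 22 and 30. The choice of the 7 has no stated threshold. Other genes lay just as low, and 17 genes outside the 7 had a log2 fold change below that of Gpc1, 10 of them without overlap between the diets. The 5 lowest of these were Mup17, Saa1, Saa2, Ugt2b38 and Serpina4-ps1, at -4.55, -3.48, -2.86, -2.81 and -2.53. Mup17, a major urinary protein, ran from 0 to 12159 on the Low AA diet and from 3857 to 9043 on the Control diet. Saa1, an acute-phase protein, ran from 68 to 770 and from 1068 to 57733, with the highest value in F2212, and of the 5 it alone did not overlap.

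**Figure D2:**
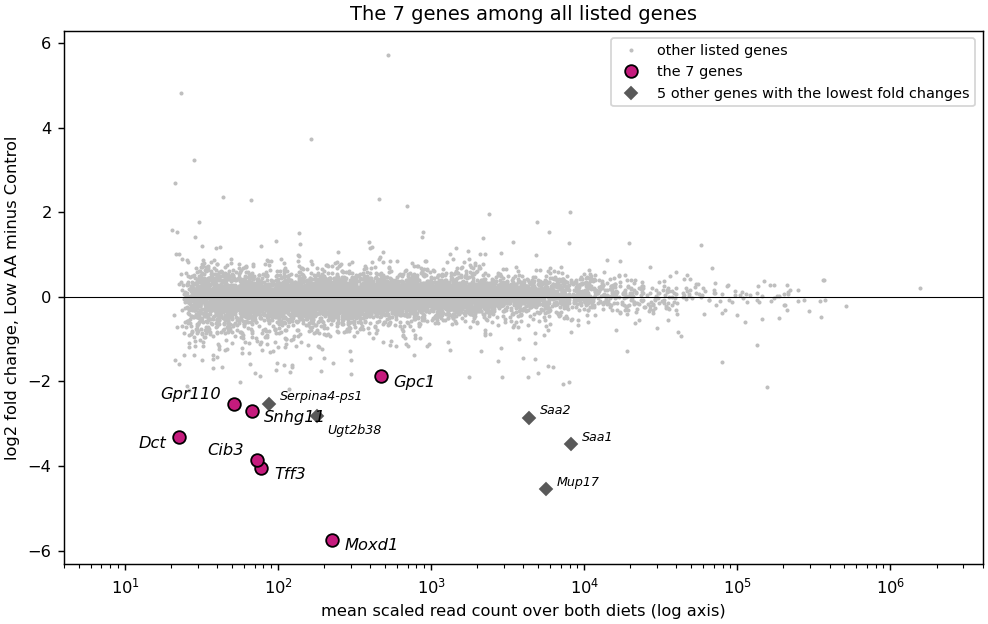
Log2 fold change (Low AA minus Control) against the mean scaled read count over both diets (log axis) for every listed gene, with the 7 genes in magenta and the 5 other genes with the lowest log2 fold changes as dark diamonds. Moxd1 lies lowest at -5.74, and Gpc1, at -1.86, has the highest mean of the 7.

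On the Control diet the means of Tff3, Gpc1 and Moxd1 lay above the middle of all genes and those of the other 4 below it. Levels are compared here per kilobase of exonic length, which was available for 11646 genes. On the Control diet Tff3 had 298 scaled reads per kilobase, above 76.0% of genes, followed by Gpc1 with 142, Moxd1 with 138, Cib3 with 68.0, Gpr110 with 23.0, Snhg11 with 13.7 and Dct with 7.0. Only Tff3 and Gpc1, with 229 to 373 and 139 to 148 over the Control mice, did not overlap as neighbours in this order. The place of Moxd1 rested largely on F7111, at 1301 scaled reads where the Control median was 220.5. Its Control mice ran from 8.44 to 407 per kilobase. On the Low AA diet Gpc1 was the highest of the 7 with 39.1, followed by Tff3 with 17.2. The other 5 lay between 0.594 and 3.97, a level under which at most 1.36% of these genes fall. Every listed gene reaches 28 or more in at least 3 mice, since lower genes had been removed. Apart from Moxd1 in H1315, these 5 genes and Tff3 reached 28 only in Control mice. Their low place on the Low AA diet thus follows in part from that removal and is not a place among all liver genes.

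The size of each difference was followed through other choices. With each mouse left out in turn the log2 fold change ran from -4.35 to -3.79 for Tff3, from -1.96 to -1.82 for Gpc1, from -4.21 to -3.67 for Cib3 and from -3.63 to -3.11 for Dct. It ran from -2.88 to -2.46 for Snhg11, from -2.96 to -2.33 for Gpr110 and from -6.82 to -4.85 for Moxd1. The pseudocount mattered most where Low AA values were lowest. With 5 added in place of 1, Dct went to -2.44 and Moxd1 to -4.48, while Gpc1 went to -1.84.

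**Figure D3:**
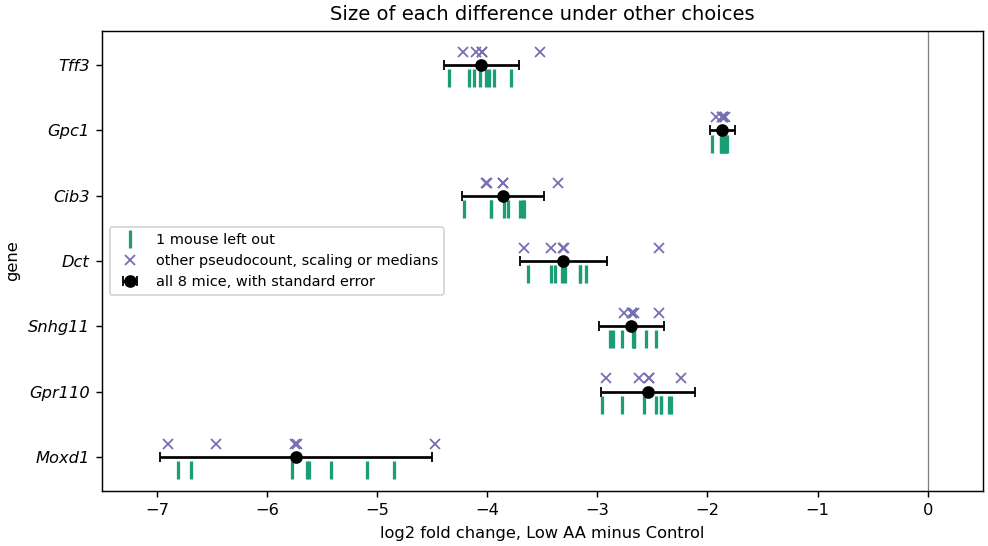
Log2 fold change (Low AA minus Control) of each gene with all 8 mice (black, bar for the standard error), with 1 mouse left out (green) and with another pseudocount, another scaling or group medians (violet crosses). All values lie below 0, with the narrowest spread for Gpc1 and the widest for Moxd1.

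To see whether relatives of the 7 differed between the diets, 127 listed genes from 8 lists were read from the same limma fit over all 11784 genes. Of these, 8 were called at an adjusted p under 0.05 and all 8 were lower on the Low AA diet, beside 0.297% of all genes called lower and 0.102% called higher. Among 31 listed genes of heparan sulfate proteoglycans 1 was called, Sulf2, the enzyme that removes 6-O-sulfate groups from heparan sulfate chains outside the cell. Sulf2 stood at 660, 707, 890 and 1024 in Control mice F129, F2212, F7111 and F2110 and at 431, 297, 430 and 299 in Low AA mice H1126, H828, H817 and H1315. Its log2 fold change was -1.17 with a standard error of 0.18 (adjusted p = 0.0308, limma, and 0.0254 to 0.083 with a mouse left out), and 2 of 8 fits without a mouse called it. The median log2 fold change of the 31 genes was 0.04, against 0.00 over all genes, and 19 were positive. The other glypicans listed were Gpc3, Gpc4 and Gpc6, with log2 fold changes of -0.62, 0.16 and -0.11, none of them called (adjusted p = 0.544, 0.742 and 0.916, limma). Syndecans Sdc1 to Sdc4 lay between 0.00 and 0.17, with none called.

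Over all genes limma called 0.399%, and 11.8% had an unadjusted p under 0.05. In lists as small as the following, 0 calls is near that share, and nothing about a family is read from it. Of 16 listed adhesion receptors related to Gpr110, 0 were called by limma, with 4 at an unadjusted p under 0.05 and a median log2 fold change of 0.02. Gpr116, now Adgrf5, is the one other listed member of the same subfamily and lies next to Gpr110 on chromosome 17. Its Low AA mean was 1450 ± 140 and its Control mean 1277 ± 322 (SD, n = 4 each), with 0.21 as the log2 fold change (adjusted p = 0.696, limma). Of 7 listed relatives of Cib3, 0 were called and 1 had an unadjusted p under 0.05, Cib2, with 44.5 and 74.5 as its Low AA and Control means and a difference of -0.69 in log2 (adjusted p = 0.277, limma). Of 24 listed copper enzymes and copper handling genes 0 were called and 3 had an unadjusted p under 0.05, and Pam, the one other listed enzyme of the Moxd1 family, had a log2 fold change of -0.05. The melanin and melanocyte list held 6 listed genes, Slc24a5, Mitf, Ednrb, Kit, Ddt and Mif, and only Slc24a5 was among the melanocyte markers. Of these 6, 0 were called, with 0 at an unadjusted p under 0.05. Of 10 listed small nucleolar RNA hosts and related noncoding genes 0 were called, with 3 at an unadjusted p under 0.05. Mitf, the pigment cell regulator, had a log2 fold change of 0.40 (adjusted p = 0.448, limma).

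The male-biased liver genes, to which Moxd1 belongs, held most of the calls. Of 19 listed genes besides Moxd1, 15 had a negative log2 fold change and 4 a positive one, with a median of -0.91. Of the 19, 6 were called lower and 0 higher, beside 0.297% and 0.102% of all genes. Those 6 were Cyp4a12a and Cyp4a12b, fatty acid hydroxylases, Mup20, the urinary protein darcin, Gstp1, a glutathione transferase, Serpina1e, a protease inhibitor, and C6, a terminal complement component. Cyp4a12a had a Control mean of 12805 ± 2888 and a Low AA mean of 3149 ± 633 (SD, n = 4 each), with -2.02 as the log2 fold change (adjusted p = 0.00198, limma), and Mup20 had -2.13 (adjusted p = 0.00355, limma). Several genes of the male-biased and female-biased lists, and Dct, were picked for display by the study from the same 8 livers, and the counts are no independent evidence of direction. In addition, near-identical neighbours may share reads in the Cyp4a12, Mup, Gstp and Serpina1 groups. The mean log2 level of the 19 genes, centred on each gene, was -0.04 in F2212, 0.02 in F2110, 0.85 in F7111 and 1.103 in F129, and -0.70 to -0.31 in the Low AA mice. Mouse F2212 was lowest among Control mice for this mean, close to F2110, and was lowest for Moxd1 as well. Above it the order differed. Mouse F129 had the highest mean but a Moxd1 value of 189, below F2110 at 252 and F7111 at 1301. Of 14 listed female-biased genes, 1 was called, Ntrk2, a neurotrophin receptor, and it was lower on the Low AA diet, with 37, 61, 52 and 20 in F129, F2212, F7111 and F2110 against 9, 11, 6 and 8 in H1126, H828, H817 and H1315 (log2 fold change -2.11, limma adjusted p = 0.0414). The median of that list was 0.69 in the other direction, with 11 genes positive and 3 negative. An unadjusted p under 0.05 (limma) was reached by 9 of these 14 genes, Ntrk2 among them. The same held for 11 of the 19 male-biased genes, beside 11.8% of all genes. These counts are no independent evidence of direction either.

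Of these 8 genes, Cyp4a12a, Cyp4a12b and Mup20 passed in all 8 fits without a mouse, Gstp1 in 6, Serpina1e in 4, Sulf2 in 2, and C6 and Ntrk2 in 1 each. The number of related genes called was 10 without F2212, with 1 higher on the Low AA diet and 9 lower. It was 7 without F2110, with 1 higher and 6 lower. It was 5 without F129 or H1315, 4 without F7111, H1126 or H828, and 3 without H817, all of them lower.

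**Figure D4:**
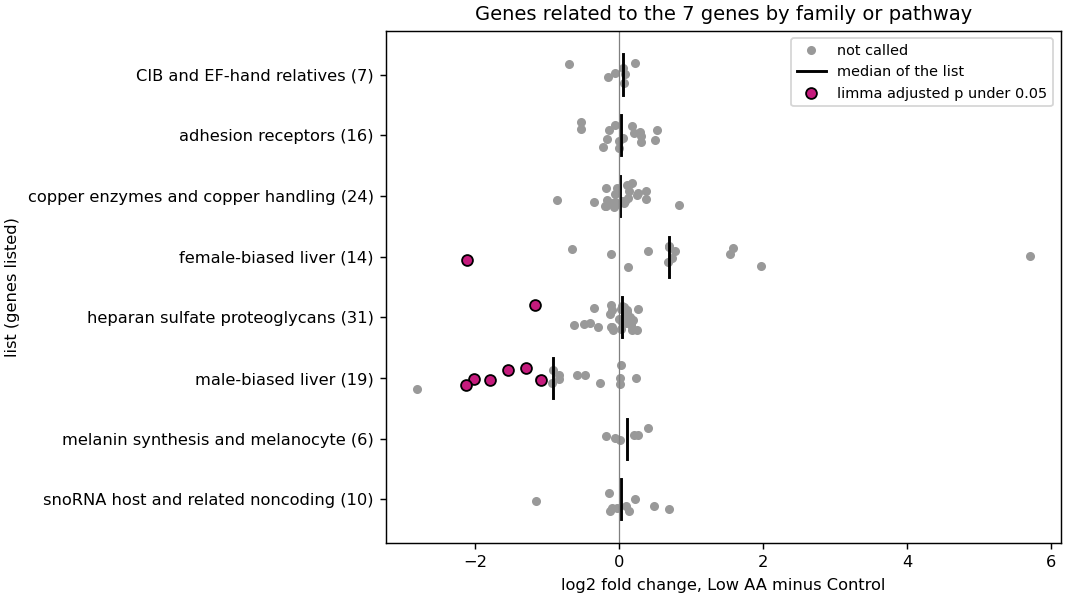
Log2 fold change (Low AA minus Control) of the listed genes of 8 related lists, with the number of genes in brackets, black lines at the list medians and magenta points for genes with a limma adjusted p under 0.05. All magenta points lie below 0, with 6 of them in the male-biased list, and the other families centre near 0 apart from the female-biased list, whose median is 0.69.

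The nearest listed genes on the chromosome were not called. Genes absent from the table were passed over, and the gaps ran from 6.66 kb beside Cib3 to 12120 kb beside Dct. Of the 42 genes that are the 3 nearest listed on each side, 0 were called by limma, and 3 had an unadjusted p under 0.05, beside 0.399% called and 11.8% with an unadjusted p under 0.05 over all genes. Their median log2 fold change was 0.01, with a range from -0.50 to 0.53. The ends of the range both flank Moxd1, with the vanin Vnn3 at 0.53 (adjusted p = 0.0812, limma) and the ectonucleotidase Enpp3 at -0.50 (adjusted p = 0.191, limma). Abcg1, a sterol transporter gene 7.32 kb from Tff3, had a Low AA mean of 179 ± 24.4 and a Control mean of 168 ± 6.70 (SD, n = 4 each). Fam32a, 6.66 kb from Cib3, had a log2 fold change of 0.00, and Rab8a on its other side had -0.03. Dusp28 and Myeov2 beside Gpc1 had 0.01 and 0.02 (adjusted p = 0.992 and 0.987, limma), Tgds and Gpc6 beside Dct -0.22 and -0.11, and Ralgapb and 9430008C03Rik beside Snhg11 0.31 and -0.12. Slc37a1 on the other side of Tff3 had -0.33, Tnfrsf21 beside Gpr110 0.04, and Stx7 and Ctgf beside Moxd1 0.08 and -0.13. With 1 or 5 genes on each side 0 were called as well.

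**Figure D5:**
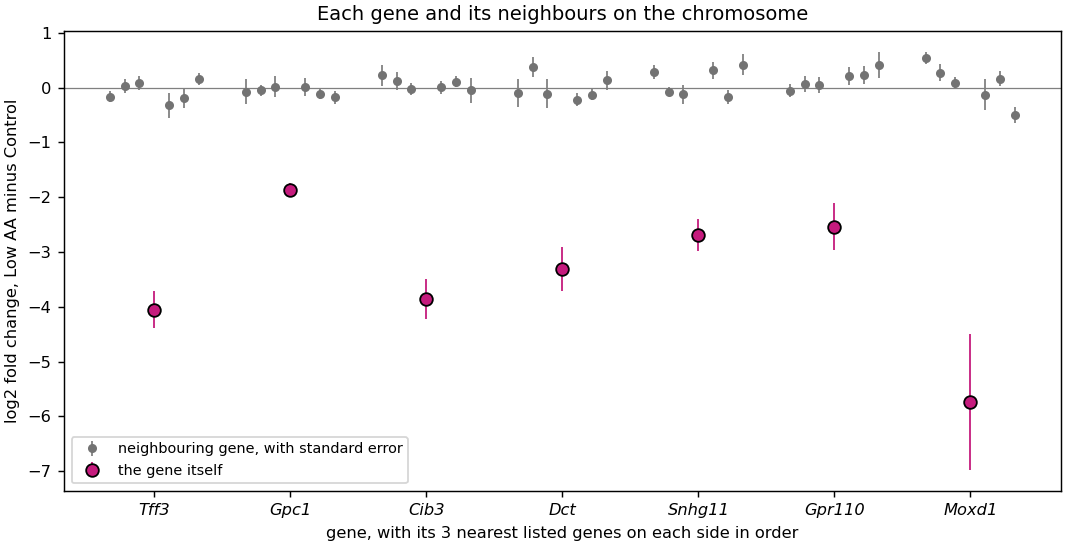
Log2 fold change (Low AA minus Control) with its standard error for each of the 7 genes (magenta) and for its 3 nearest listed genes on each side in chromosomal order (grey). The grey points lie between -0.50 and 0.53, and the magenta points between -5.74 and -1.86.

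Which other genes had the most similar values across the 8 mice was measured as the root mean square difference between log2 profiles, each centred on its own mean, as a description. Gpc1 was matched most closely, by Cyp4a12a (0.31) and Cyp4a12b (0.33). Snhg11 was nearest to Treh, the trehalase gene (0.53), and to Cyp4a12a (0.58), and Gpr110 to Cd276, an immune checkpoint ligand (0.63), and to Treh (0.63). The nearest genes to Dct were Orm1 (0.79) and Apol9b (0.81), and those to Cib3 were Treh (0.90) and Mup20 (0.94). Tff3 was nearest to Mup20 (1.05) and Cyp4a12a (1.07), and Moxd1 had no close match, with Scara5 at 2.34 and Lrtm1 at 2.40. Treh ran from 26 to 63 on the Low AA diet and from 112 to 259 on the Control diet. These likenesses follow largely from the difference between diets that chose the 7.

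Markers of the other main liver cells were compared between the diets in the same way. Of the stellate, sinusoidal endothelial and Kupffer cell lists all markers were listed, with mean differences of -0.23, 0.07 and 0.26 on the log2 scale (exact permutation test, two-sided, p = 0.143, 0.571 and 0.143, adjusted p = 0.286, 0.876 and 0.286 over 8 marker lists). As for the bile duct list, 1 list alone at the smallest possible p of 0.0286 has an adjusted p of 0.229 over 8 lists, so these p-values do not show that the markers were alike. Of 7 goblet cell markers 0 were matched to the table.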

How the data were processed

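The 7 genes and the gene lists were chosen with earlier results of these data known. Livers of 4 Control and 4 Low AA mice were analysed, each mouse as 1 replicate. Per the labels, poly(A) RNA was made into stranded libraries, and the submitters' processing notes name bcl2fastq 1.8.2, STAR 2.5.0a, RSEM 1.2.6, edgeR 3.10.5, R 3.2.1 and build mm10, without saying which step each served. The authors deposited 1 table with a signal per gene and mouse, a read count scaled and rounded to a whole number. The scaling is inferred from evenly spaced gaps or doublings among the low values of several mice and from medians over genes of 433.0 to 449.0 in every mouse. The deposited table also holds the authors' signed fold change, a score, and their FDR, a q-value, which were not used. The third highest value of each gene is 28 or more, so lower genes had been removed, and exact depth is unknown.

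Values were analysed as log2(value + 1), on which folds of low genes are understated, with limma 3.58.1 in R 4.3.3, moderated along the mean-variance trend. P-values were adjusted by Benjamini-Hochberg over the 11784 genes and called at an adjusted p under 0.05. Positive values are higher on Low AA. Standard errors of the 7 genes come from this fit. Marker lists were compared by exact permutation tests of the mean centred log2 level. A bile duct marker is not reported here, and its list was shortened after values had been seen. Symbols were matched through RefSeq GRCm38.p6 names and synonyms (11704 of 11784). Clca1 in this table is the gene now named Clca3a1 and was not taken as a goblet cell marker. Gene spans and exonic lengths are from GENCODE M21. Promoters were found for 5 of the 7 genes. Named genes were the 7, called related genes, listed relatives in the same family, the nearest neighbours, the 2 most similar profiles per gene, the 5 lowest other fold changes and markers. Mitf, Ednrb, Kit, Ddt, Mif, Vnn3, Enpp3 and those in the closing section were named after their values were seen. Alternatives were pseudocounts of 0.1 and 5, equal totals, median ratio scaling, group medians, the 8000 highest genes, no trend, robust moderation, vooma weights, an adjusted p under 0.1, 1 or 5 neighbours and each mouse left out. Figures were drawn with matplotlib 3.10.9.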

Additional observations from a re-analysis of the deposited data

Results flagged for a closer look

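Each of 46 sets of 4 values was searched for a mouse standing apart, and 2 sets held one, where about 1 in 20 would by chance. For Gpr110 it was Control mouse F2212, at 5.09 on the log2 scale, whose gap to the nearest mouse was 0.877 of the whole range of the Control mice. For the pancreatic acinar markers, of which Cela1 alone of 10 was listed, it was the same mouse on the high side, with a gap of 0.945 of the range. Whether one bears on the other was not tested.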

How the results depend on the processing

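The 7 log2 fold changes kept their sign under every alternative run. Of 91 values, 90 moved by less than the spread between mice, taken as the larger within-diet SD of the gene's log2 values. The exception was Dct, which went from -3.31 to -2.44 with a pseudocount of 5. Over all genes 47 were called. With the 8000 highest genes 19 were called, where fewer genes were tested, with no trend 30, and at an adjusted p under 0.1 132. Leaving out 1 mouse gave 16 (without H817) to 77 (without F2212), with 21 without H1126, 19 without H828 and 29 without F129, and the cause was not tested. Related genes called went from 8 to between 3 and 10 with a mouse left out. Neighbour genes called went from 0 to 1, Vnn3, at an adjusted p under 0.1, and to between 0 and 1 with a mouse left out, the 1 being without F7111. Marker list differences that changed sign were small or rested on F2212, with a mouse left out giving -0.164 to 0.114 for melanocyte, -0.092 to 0.013 for neuron, -0.009 to 0.138 for sinusoidal endothelial and -2.21 (without F2110) to 0.501 (without F2212) for acinar markers, and the other 88 of 96 kept their sign. No p of a marker list could pass with a mouse left out, nor could that of 1 list alone after adjustment, so these p-values say nothing about stability. No paired analysis was possible because no mouse code occurs on both diets. Values of 0 to 10 in at least 3 of the 4 mice limit the precision of Dct, Cib3, Tff3 and Moxd1 on the Low AA diet.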

Other observations

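Some relatives of the 7 genes did not overlap between diets without being called. Meg3, a maternally expressed noncoding RNA, had a Low AA mean of 18.0 and a Control mean of 39.2, with -1.16 as the log2 fold change (adjusted p = 0.223, limma). Snhg3, a small nucleolar RNA host like Snhg11, lay in the other direction, with means of 297 and 187 and a log2 fold change of 0.69 (adjusted p = 0.135, limma). Among copper genes Loxl1, a lysyl oxidase of elastic fibres, had a log2 fold change of -0.87 (adjusted p = 0.142, limma), and Sco2, a copper chaperone of cytochrome oxidase, had 0.83 (adjusted p = 0.133, limma). Agrn, the heparan sulfate proteoglycan agrin, had -0.49 (adjusted p = 0.149, limma), and Gpr125, an adhesion receptor, had 0.31 (adjusted p = 0.272, limma). Such non-overlap was found in 6.81% of all listed genes, and these genes were named after their values were seen.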
